A study of Mus musculus with 12 samples.

Results

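The genes described here are 9 transcription factors that mark regions of the hypothalamus and its neighbours: Foxa1, Foxa2, Foxb1, Barhl1, Lhx1, Lhx6, Lhx8, Lhx9 and Sim1. They were chosen by name, with earlier results of these data known. Their rows are the entries of the deposited count table whose Ensembl identifiers carry these symbols, 9 of its 52638 entries. All 9 passed the filter on low counts in each comparison. They belong to 4 families. Foxa1, Foxa2 and Foxb1 are forkhead factors, Barhl1 is a BarH-like homeobox factor, Lhx1, Lhx6, Lhx8 and Lhx9 carry LIM domains beside a homeodomain, and Sim1 is a basic helix-loop-helix PAS factor.

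The libraries come from adult mouse hypothalamus collected midway through the light phase and were made by translating ribosome affinity purification (TRAP), in which a tagged ribosomal protein is made in chosen cells and pulled down with the messages it translates. Control mice (Ctrl) carried LepRb-Cre/Cre, which makes Cre recombinase under the gene of LepRb, the signalling form of the leptin receptor, and R26-GFP:L10a/GFP:L10a, a Cre-dependent green fluorescent tag on ribosomal protein L10a. Stat3KO mice carried both of these and Stat3-flox/flox, so that Stat3, a transcription factor activated by leptin, is removed in the same cells. Each genotype gave 3 pools of 5 to 8 mice, and each pool gave a library of RNA bound to the beads (bead-bound, enriched for LepRb cells) and a library of the RNA left behind (supernatant, from all cells), which made 4 groups of 3 libraries. The tag marks every cell in which Cre has ever been active, the dissected block has edges of 3 mm and can take in tissue next to the hypothalamus, and neither the sex nor the age in weeks is given in the labels. A level in such bulk RNA cannot tell fewer cells of a type from less RNA per cell.

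Foxa1 and Foxa2 help to set up and keep midbrain dopamine neurons and are also made in the posterior hypothalamus. Foxb1, Barhl1 and Lhx1 take part in building the mammillary body and the ground next to it, while Sim1 is needed for neurons of the paraventricular nucleus and lies near the mammillary region as well. Lhx6 marks GABA neurons born in the ventral forebrain and a group around the zona incerta and dorsomedial hypothalamus. Lhx8 directs the cholinergic fate in the basal forebrain, and Lhx9 is known from the thalamus, the pretectum and a cell group that makes orexin.

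Libraries held 20743217 to 41829907 counts. Levels are CPM (counts scaled by library size) after TMM scaling, which sets libraries on a common scale through the bulk of their genes. Stat3 was at 114 to 160 CPM in the bead-bound libraries of Stat3KO mice and at 144 to 179 CPM in those of Ctrl mice; the table counts the whole gene and the labels do not name the floxed exons, so these values do not check the deletion (log2 fold change -0.24, edgeR adjusted p = 0.999). Lepr was called higher on the beads in both genotypes (log2 fold change 2.37 in Ctrl and 2.30 in Stat3KO), as was the Gfp_L10a transgene (3.60 and 3.38). Among marker lists, 6 of 6 endothelial genes were called higher on the beads over both genotypes, with a summed level of 50.0 to 125 CPM in Ctrl and 14.8 to 132 CPM in Stat3KO bead-bound RNA. In the same comparison 6 of 6 astrocyte, 6 of 6 oligodendrocyte and 6 of 6 microglial genes were called lower. Neuron markers were called higher for 3 of 6 and lower for 0 (median log2 fold change 0.36). Markers of ependyma and tanycytes were called lower for 2 of 6 and higher for 0. Of all genes, 26.2% were called higher and 28.7% lower. Of the 9 hypothalamic markers with an entry, 4 were called higher and 4 lower.

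The 9 factors fell into 3 sets by where their RNA was found. Foxa1, Foxa2 and Barhl1 were higher in bead-bound RNA than in supernatant. Foxb1 and Lhx1 were called in neither direction. Lhx6, Lhx8, Lhx9 and Sim1 were lower on the beads. In Ctrl mice 3 factors were called higher and 4 lower on the beads at an adjusted p under 0.05 (edgeR's quasi-likelihood test, Benjamini-Hochberg adjustment over all genes tested), against a background of 20.7% of all genes called higher and 21.2% called lower. In Stat3KO mice 3 were called higher and 2 lower, against 14.7% and 17.3% of all genes. With both genotypes averaged, 3 were called higher and 4 lower, against 26.2% and 28.7%. Fold changes of at least 4 with a call were rarer, at 0.649% of all genes in Ctrl, 0.9% in Stat3KO and 0.737% in the average, and Foxa1 and Foxa2 were past that size in all 3.

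**Figure D1:**
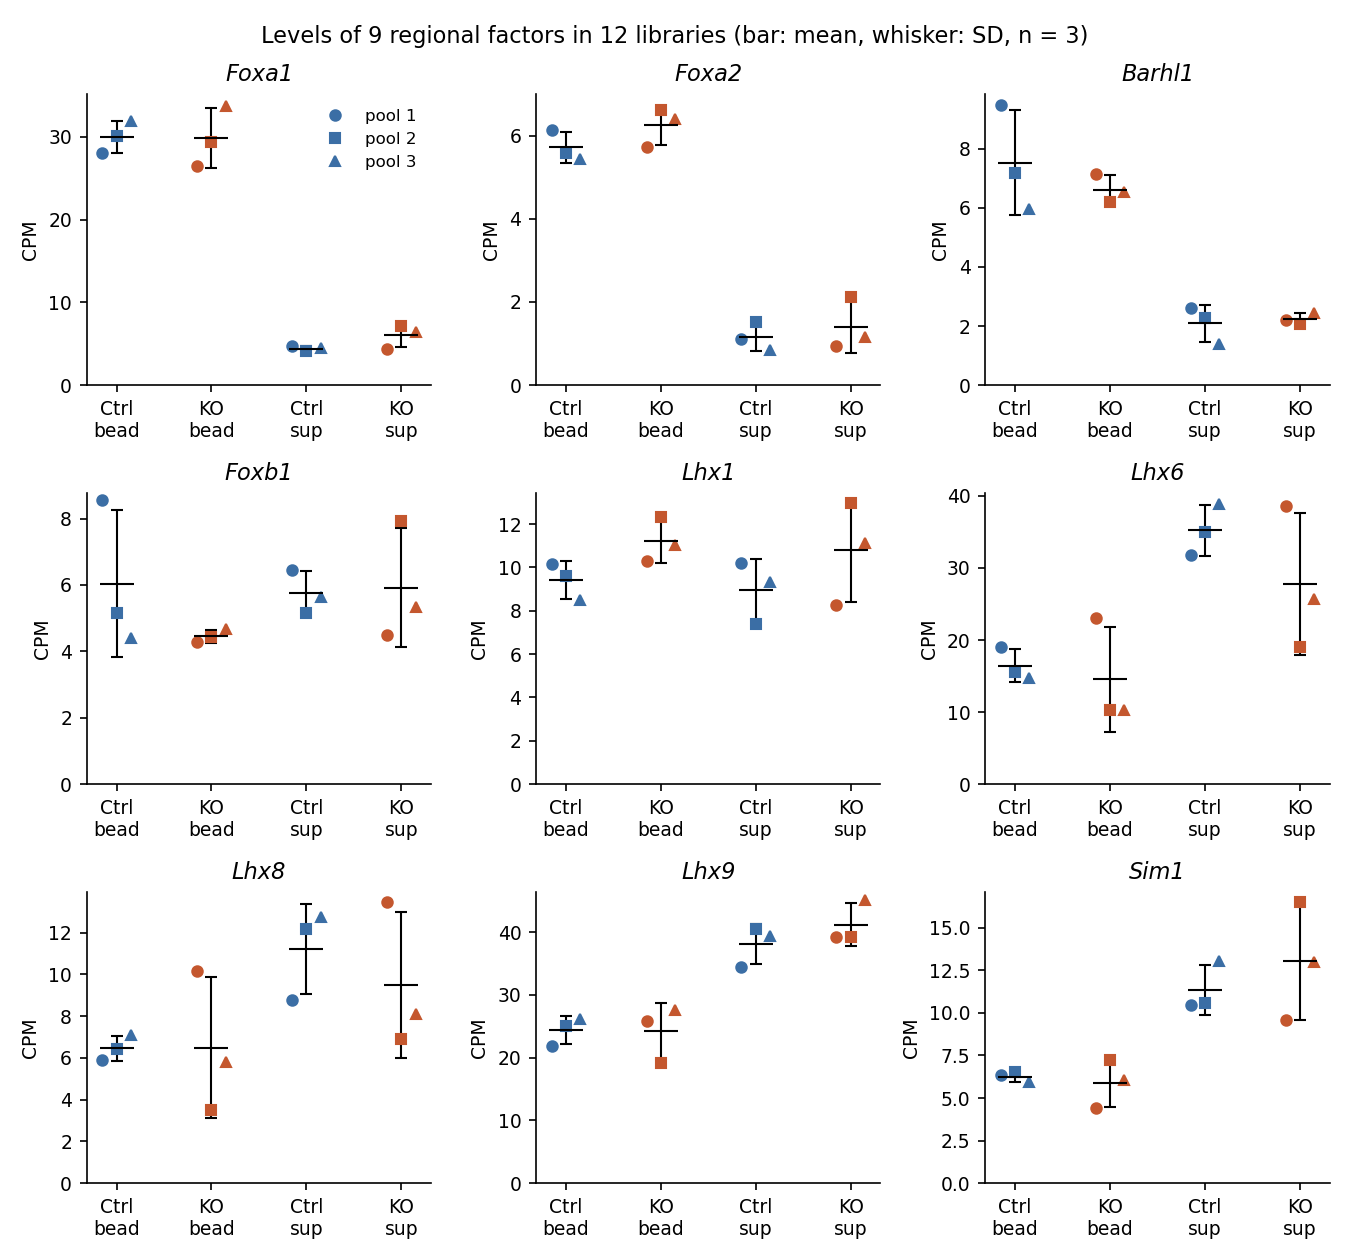
Level in CPM (vertical axes, from 0) of each of the 9 factors in the 12 libraries, grouped by genotype and fraction; points are libraries, shaped by pool number, and bars and whiskers are the mean and SD of 3. Foxa1, Foxa2 and Barhl1 stand higher in both bead groups than in both supernatant groups, Foxb1 and Lhx1 do not separate, and Lhx9 and Sim1 stand lower in the bead groups.

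The letters before the start sites were read because STAT3 binds DNA and the Foxa factors bind it too. RefSeq windows on GRCm38.p6 were found for 8 of the 9 factors, 13 in all, and the 250 bases before each start were searched on both strands. The paired STAT motif TTCNNNGAA was found in 0 of the 13 windows and in 7.02% of 32851 windows of all genes. The looser spacing TTNNNNNAA, which holds every TTCNNNGAA, was found in 11 of the 13 and in 55.2% of all windows. The forkhead motif TGTTTAC was found in 1 window, that of Foxa1, starting 141 bases before its start, and in 3.17% of all windows. The windows that follow show 1 start each of a pair of factors that were high on the beads and of Lhx6, which was low; they run 5′ to 3′ on the gene's strand (minus) and capitals mark TTNNNNNAA. They are Foxa2 at chr2:148046970-148047219, Barhl1 at chr2:28916669-28916918 and Lhx6 at chr2:36105409-36105658.
Foxa2: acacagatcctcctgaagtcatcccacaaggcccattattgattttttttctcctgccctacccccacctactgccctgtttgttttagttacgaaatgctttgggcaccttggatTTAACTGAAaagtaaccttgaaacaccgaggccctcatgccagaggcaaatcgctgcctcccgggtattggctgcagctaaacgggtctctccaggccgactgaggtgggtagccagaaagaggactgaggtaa
Barhl1: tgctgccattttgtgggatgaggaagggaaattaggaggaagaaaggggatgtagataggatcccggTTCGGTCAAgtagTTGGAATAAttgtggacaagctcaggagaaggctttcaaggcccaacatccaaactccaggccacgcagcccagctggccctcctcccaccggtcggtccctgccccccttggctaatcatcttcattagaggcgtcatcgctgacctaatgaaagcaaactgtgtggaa
Lhx6: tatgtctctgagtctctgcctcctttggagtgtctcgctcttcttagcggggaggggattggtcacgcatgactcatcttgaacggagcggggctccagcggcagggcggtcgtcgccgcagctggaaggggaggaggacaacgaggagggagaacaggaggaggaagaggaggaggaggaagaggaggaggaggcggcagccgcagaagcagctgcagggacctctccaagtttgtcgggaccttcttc
Foxa2 holds 1 marked stretch and Barhl1 holds 2, while this start of Lhx6 holds 0. That is no contrast between the sets: all 8 factors with a window, Lhx6, Lhx8, Lhx9 and Sim1 included, hold the looser spacing before at least 1 start. The Lhx6 window has 14 CG dinucleotides, against 6 in that of Foxa2, 7 in that of Barhl1 and a median of 6 over all windows. A match is a run of letters and not a measured site.

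Foxa1, a pioneer factor that opens closed chromatin, is ENSMUSG00000035451 and lies on chromosome 12 at 57540628-57546916 of GRCm38, on the minus strand. Its bead-bound level was 28.0, 30.1 and 31.9 CPM in Ctrl pools 1, 2 and 3, and 26.5, 29.4 and 33.8 CPM in the Stat3KO pools. In supernatant it was 4.69, 4.13 and 4.44 CPM in Ctrl and 4.42, 7.16 and 6.48 CPM in Stat3KO. The lowest bead-bound library thus stood well above the highest supernatant library. The log2 fold change of bead over supernatant was 2.77 (SE 0.122, edgeR adjusted p = 1.46e-05) in Ctrl and 2.30 (SE 0.199, edgeR adjusted p = 0.000111) in Stat3KO. By p it was the 8th of 18036 genes tested in Ctrl, the 101st of 18107 in Stat3KO and the 16th of 19122 over both genotypes. Within single pools the bead to supernatant ratio of Foxa1 ran from 4.11 to 7.30, beside 3.07 to 6.43 for Lepr and 8.37 to 16.8 for Gfp_L10a.

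Foxa2, the paralog of Foxa1 that also patterns the floor plate, is ENSMUSG00000037025 and lies on chromosome 2 at 148042877-148046969 on the minus strand. It was at 6.13, 5.58 and 5.44 CPM in the Ctrl bead-bound pools and at 5.72, 6.62 and 6.41 CPM in those of Stat3KO. Supernatant held 1.11, 1.51 and 0.836 CPM in Ctrl and 0.934, 2.13 and 1.15 CPM in Stat3KO. These are small numbers of reads, between 25 and 92 counts per supernatant library, yet the fractions did not overlap. Its log2 fold change was 2.31 (SE 0.248, edgeR adjusted p = 0.000433) in Ctrl and 2.13 (SE 0.301, edgeR adjusted p = 0.00138) in Stat3KO. Pool ratios ran from 3.11 to 6.50.

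Barhl1, whose window holds 2 marked stretches and which marks mammillary and subthalamic territory, is ENSMUSG00000026805 and lies on chromosome 2 at 28907679-28916668 on the minus strand. Its bead-bound level was 9.47, 7.18 and 5.95 CPM in Ctrl and 7.14, 6.20 and 6.52 CPM in Stat3KO. Supernatant held 2.61, 2.27 and 1.39 CPM in Ctrl and 2.20, 2.06 and 2.45 CPM in Stat3KO. Ctrl pool 1 was the highest of its group in both fractions, and no bead-bound library fell to the supernatant range. Beads over supernatant gave a log2 fold change that was 1.87 (SE 0.284, edgeR adjusted p = 0.00170) in Ctrl and 1.56 (SE 0.187, edgeR adjusted p = 0.000616) in Stat3KO, with pool ratios from 2.66 to 4.29.

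Foxb1, a forkhead factor of the mammillary body, is ENSMUSG00000059246 and lies on chromosome 9 at 69757710-69760940 on the minus strand. Bead-bound RNA held 8.55, 5.16 and 4.41 CPM in Ctrl and 4.28, 4.44 and 4.66 CPM in Stat3KO. Supernatant held 6.46, 5.16 and 5.64 CPM in Ctrl and 4.49, 7.92 and 5.34 CPM in Stat3KO. The fractions overlapped, and Ctrl bead-bound pool 1 stood above the other libraries. On the log2 scale the change was 0.07 (SE 0.262, edgeR adjusted p = 0.834) in Ctrl, where it was -0.08 with library totals in place of TMM, and -0.42 (SE 0.231, edgeR adjusted p = 0.186) in Stat3KO. B230323A14Rik, an antisense gene annotated across Foxb1 on the other strand, held 2.5 to 4.96 CPM; the kit is not stated to keep strand, so reads in their shared part cannot be told apart.

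Lhx1, which acts in the mammillary body, the ventral thalamus and the suprachiasmatic nucleus, is ENSMUSG00000018698 and lies on chromosome 11 at 84518284-84525535 on the minus strand. Bead-bound RNA held 10.2, 9.62 and 8.48 CPM in Ctrl and 10.3, 12.3 and 11.04 CPM in Stat3KO. Supernatant held 10.2, 7.38 and 9.32 CPM in Ctrl and 8.25, 12.98 and 11.1 CPM in Stat3KO. The ranges of both fractions lay over each other in each genotype. The log2 fold change was 0.08 (SE 0.166, edgeR adjusted p = 0.716) in Ctrl and 0.05 (SE 0.188, edgeR adjusted p = 0.868) in Stat3KO, and with library totals in place of TMM it was -0.07 and -0.05. Pool ratios stood on both sides of 1, from 0.910 to 1.30.

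Lhx6, whose window has the most CG dinucleotides of those printed, is ENSMUSG00000026890 and lies on chromosome 2 at 36081953-36105408 on the minus strand. Its bead-bound level was 19.0, 15.6 and 14.7 CPM in Ctrl and 23.0, 10.2 and 10.4 CPM in Stat3KO. In supernatant it was 31.8, 35.0 and 38.9 CPM in Ctrl and 38.6, 19.1 and 25.7 CPM in Stat3KO. Stat3KO pool 1 was high and pools 2 and 3 were low in both fractions, so the Stat3KO fractions overlapped across pools while each pool's beads stood below its own supernatant. Its log2 fold change was -1.10 (SE 0.143, edgeR adjusted p = 0.000935) in Ctrl and -0.95 (SE 0.343, edgeR adjusted p = 0.0603) in Stat3KO.

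Lhx8 (ENSMUSG00000096225) lies on chromosome 3 at 154306294-154330659 on the minus strand. Its bead-bound level was 5.88, 6.41 and 7.08 CPM in Ctrl and 10.2, 3.52 and 5.78 CPM in Stat3KO. In supernatant it was 8.77, 12.2 and 12.8 CPM in Ctrl and 13.5, 6.88 and 8.10 CPM in Stat3KO. As for Lhx6, the first Stat3KO pool was the highest of its group in both fractions. Beads over supernatant gave a log2 fold change that was -0.80 (SE 0.177, edgeR adjusted p = 0.00813) in Ctrl and -0.56 (SE 0.371, edgeR adjusted p = 0.268) in Stat3KO. Averaged over both genotypes it was -0.68 (edgeR adjusted p = 0.0208), a call lost without Stat3KO supernatant replicate 1 (-0.51, adjusted p = 0.0682) and without Stat3KO bead replicate 2 (-0.50, adjusted p = 0.0504).

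Beads and supernatant of 1 number came from 1 pool, and a fit with the pool as a block changed what was called in Stat3KO. Lhx6 was then lower on the beads by edgeR (log2 fold change -0.99, adjusted p = 1.44e-05), as was Lhx8 (-0.62, adjusted p = 0.00439). The number of factors called lower in Stat3KO went from 2 to 4, against a background of 26.0% of all genes called lower in that fit. Without the block, leaving out single Stat3KO libraries moved Lhx6 from -0.63 (adjusted p = 0.199, without supernatant replicate 1) to -1.43 (adjusted p = 0.000646, without bead replicate 1). The same fits moved Lhx8 from -0.22 (adjusted p = 0.702) to -1.03 (adjusted p = 0.0147). Both ends of these ranges leave out 1 fraction of pool 1 and keep the other, so the lone library shifts the difference by construction.

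Lhx9 (ENSMUSG00000019230) lies on chromosome 1 at 138825186-138848577 on the minus strand. Bead-bound RNA held 21.9, 25.04 and 26.2 CPM in Ctrl and 25.8, 19.2 and 27.7 CPM in Stat3KO. Supernatant held 34.5, 40.5 and 39.4 CPM in Ctrl and 39.2, 39.2 and 45.2 CPM in Stat3KO. Every bead-bound library stood below every supernatant library. On the log2 scale the change was -0.64 (SE 0.114, edgeR adjusted p = 0.00320) in Ctrl and -0.78 (SE 0.159, edgeR adjusted p = 0.00665) in Stat3KO.

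Sim1 (ENSMUSG00000019913), on the plus strand of chromosome 10 at 50894754-50989152, is the 1 factor of the 9 that is not on a minus strand. Bead-bound RNA held 6.34, 6.51 and 5.92 CPM in Ctrl and 4.40, 7.22 and 6.07 CPM in Stat3KO. Supernatant held 10.5, 10.6 and 13.02 CPM in Ctrl and 9.59, 16.5 and 13.01 CPM in Stat3KO. The fractions did not overlap. The log2 fold change was -0.86 (SE 0.150, edgeR adjusted p = 0.00310) in Ctrl and -1.15 (SE 0.244, edgeR adjusted p = 0.00766) in Stat3KO.

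Ratios within pools gave the same 3 sets. The bead to supernatant ratio lay below 1 in 6 of 6 pools for Lhx9 (0.490 to 0.666), Lhx8 (0.511 to 0.755), Lhx6 (0.379 to 0.598) and Sim1 (0.437 to 0.615). For Foxb1 it ran from 0.560 in Stat3KO pool 2 to 1.32 in Ctrl pool 1. Libraries of the fractions did not overlap for 7 of the 9 factors in Ctrl and for 5 in Stat3KO, where 54.2% and 48.9% of all genes did not overlap.

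**Figure D2:**
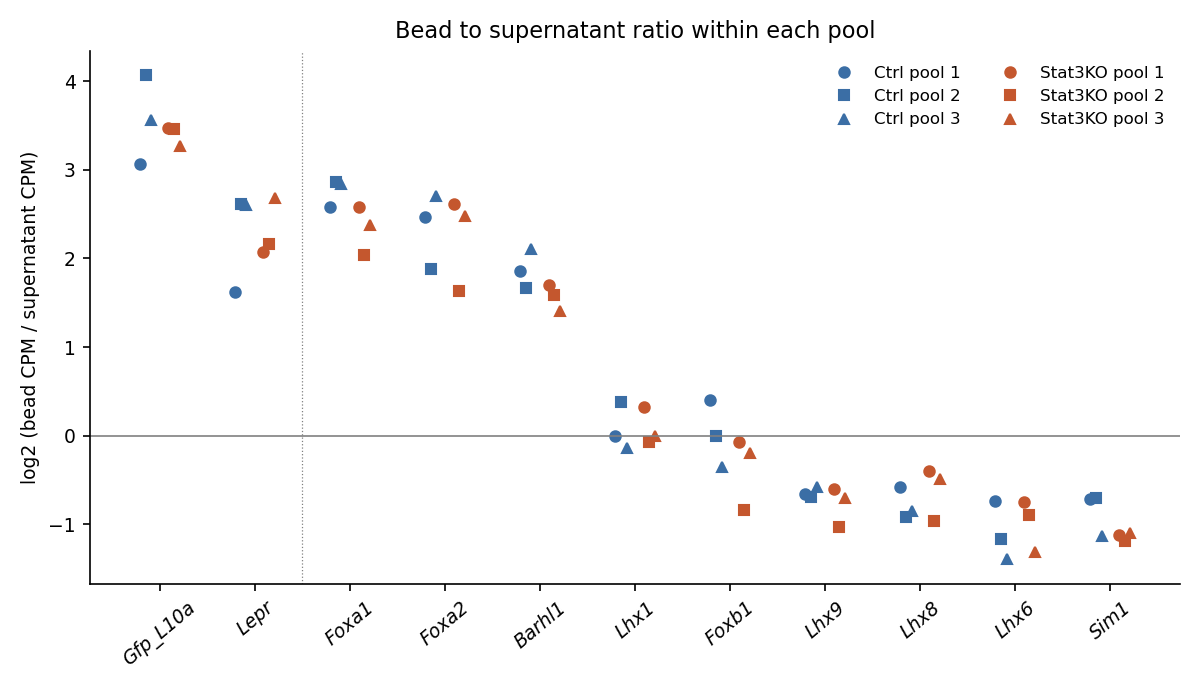
Base 2 logarithm of the bead CPM over the supernatant CPM of the same pool (vertical axis) for the Gfp_L10a transgene, Lepr and the 9 factors, with 1 point per pool coloured by genotype; the grey line marks equal levels. All 6 points of Foxa1, Foxa2 and Barhl1 lie above the line, between 1.41 and 2.87, and all 6 points of Lhx9, Lhx8, Lhx6 and Sim1 lie below it.

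Per kilobase of annotated exon, a scale on which genes can be set side by side, Foxa1 had the highest bead-bound level of the 9, with 9.02 ± 0.581 CPM per kb (SD, n = 3) in Ctrl and a mean of 8.98 in Stat3KO. Lhx6 came next in Ctrl beads (3.42 ± 0.472 CPM per kb), and its libraries did not overlap those of Foxa1 or Lhx9. From Lhx9 (2.57 ± 0.239) through Lhx8, Foxa2, Lhx1 and Foxb1 to Barhl1 (1.93 ± 0.457), each neighbour in the order overlapped the next. Sim1 was the lowest on Ctrl beads, at 0.726 ± 0.0351 CPM per kb. In Ctrl supernatant the order was led by Lhx6 (7.33 ± 0.740 CPM per kb), and Barhl1 (0.535 ± 0.162) and Foxa2 (0.486 ± 0.143) overlapped each other at its foot. Foxa1 stood sixth there, at 1.33 ± 0.0847 CPM per kb.

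Genes known to accompany each factor were read from lists in the same comparison, bead over supernatant averaged over genotypes. The lists were chosen with earlier results of these data known, so their counts give no independent support. Of all 19122 genes tested, 26.2% were called higher and 28.7% lower, with a median of -0.03 on the log2 scale. Some genes stand in more than 1 list. Midbrain dopamine genes that go with Foxa1 and Foxa2 were called higher for 9 of 9, with a median of 2.53. Among them were Slc6a3, the dopamine transporter (2.95), Th, the enzyme that limits dopamine synthesis (2.72), and Ddc, the enzyme after it (2.66).

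Premammillary genes were called higher for 5 of 8, with a median of 1.24. These included Dlk1, a Notch ligand-like membrane protein (1.75), Adcyap1, the gene of the peptide PACAP (2.05), and Slc6a3. Mammillary and posterior hypothalamic factors were called higher for 7 of 13 and lower for 1, with a median of 0.73. Nkx2-4 (2.27), Lmx1b (1.86) and Lmx1a (1.66) were higher, and Wnt8b, a secreted patterning signal chosen here because it was the 1 gene called lower, was at -2.27 from levels under 1 CPM.

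Arcuate factors were called higher for 11 of 12, with a median of 1.53. Tbx3, which keeps the identity of arcuate melanocortin neurons, was at 3.11, Otp at 2.27 and Six6 at 1.79. Of ventromedial factors, 2 of 6 were called higher (Nr5a1 3.05, Fezf1 1.45) and 2 lower (Tcf7l2 -0.68, Nkx2-2 -0.52). With 6 genes, these counts are near the shares of all genes, 26.2% higher and 28.7% lower. Tcf7l2 is not particular to that nucleus and is also abundant in the thalamus and habenula.

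LIM homeobox genes and cofactors other than the members were called higher for 6 of the 12 tested and lower for 0, with a median of 0.37. Isl1, a LIM factor of arcuate neurons, was at 1.28 and was higher where Lhx6, Lhx8 and Lhx9 were lower. Partners of Sim1 and paraventricular factors were called higher for 1 of 6 (Otp, 2.27) and lower for 2, Arnt at -1.13 and Nkx2-2 at -0.52. With 6 genes, these counts too are near the shares of all genes. Arnt2, the dimer partner of Sim1, was at 0.02 with no call (edgeR adjusted p = 0.864).

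GABA and dorsomedial genes that accompany Lhx6 were called higher for 3 of 10 (Nkx2-1 0.86, Dlx2 0.60 and Dlx1 0.34) and lower for 1. Their median was 0.11, and the share called higher was near the 26.2% of all genes. Cholinergic basal forebrain genes that accompany Lhx8 were called lower for 5 of 6, with a median of -0.84. Slc5a7, the choline transporter, was at -1.50, Ngfr, a neurotrophin receptor of cholinergic neurons, at -0.84 and Chat, the acetylcholine-making enzyme, at -0.64. Of 3 genes listed for orexin and melanin-concentrating hormone neurons, Pdyn, which encodes neither hormone, was higher (1.37). The hormone genes Hcrt (-0.85) and Pmch (-1.62) were lower. Lhx9, known from orexin neurons, was lower as well, while Hcrt had no call in Ctrl alone (-0.62, edgeR adjusted p = 0.241). Among markers of regions next to the hypothalamus, 4 of 7 thalamus and habenula genes were called lower and 0 higher. Of 9 striatum and cortex genes 3 were called lower and 1 higher, a share near the 28.7% of all genes called lower. In Ctrl alone 5 were lower and 1 higher (median -1.07), where 21.2% of all genes were called lower. In Stat3KO alone, where 17.3% of all genes were called lower, 0 of these markers were lower and 1 higher (median -0.60). Their part in the values of the 4 low factors was not tested.

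**Figure D3:**
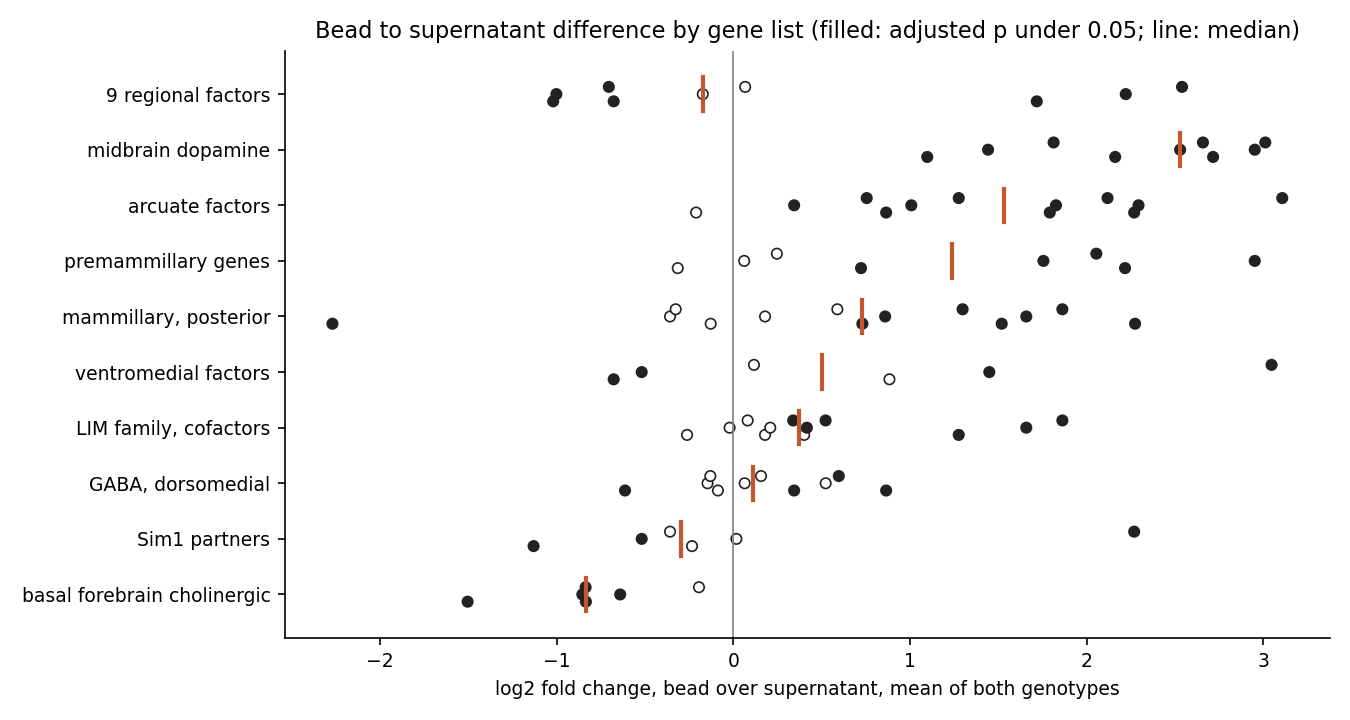
Log2 fold change of bead over supernatant, mean of both genotypes (horizontal axis), for the 9 factors and for 9 lists of accompanying genes; each point is 1 gene, filled where the adjusted p is under 0.05, and the orange line is the list's median. The dopamine list has its median at 2.53, the cholinergic list at -0.84, and the 9 factors spread over both sides of 0.

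The genes with the most similar profile over the 12 libraries were found by the root mean square difference of centred log2 CPM, among 15254 genes. For Foxa1 they were Ddc (0.147), Th (0.173) and Foxd2 (0.199). For Foxa2 they were Nr5a1os (0.293), Nkx2-4 (0.299) and Otp (0.300). For Barhl1 they were Jph2 (0.211), Prr33 (0.216) and Sncg (0.223). The first of these trios holds a pair of dopamine synthesis enzymes.

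Lhx6 stood nearest to Scn4b (0.183), Ankrd33b (0.191) and Bcl11b (0.209), of which Scn4b, a sodium channel subunit, and Bcl11b, a zinc finger factor, are abundant in striatal projection neurons. Lhx8 stood nearest to Krt73 (0.196), Ankrd33b (0.226) and Bcl11b (0.253). For Lhx9 the nearest were Tcf7l2 (0.0733), Zic1 (0.104) and Zmat4 (0.110), of which Tcf7l2 also stands in the ventromedial list. Those of Sim1 were Arhgap42 (0.141), Tns3 (0.151) and Ezh2 (0.154). Foxb1 had Fancg (0.162), Tab1 (0.167) and Pias4 (0.177) beside it, and Lhx1 had Pnpla2 (0.133), Spry4 (0.149) and Zfp7 (0.157). Among the factors themselves the closest pairs were Lhx6 with Lhx8 (0.279), Foxa1 with Foxa2 (0.307), Foxb1 with Lhx1 (0.326) and Lhx9 with Sim1 (0.337). The distance takes in counting noise as well, so values for genes of few reads, such as Foxa2, and of many cannot be ranked against each other.

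The study asks what STAT3 does in LepRb cells, and none of the 9 factors was called between genotypes. In bead-bound RNA 0 of 9 were called higher or lower by edgeR and 0 by DESeq2, against edgeR backgrounds of 0.421% of all genes called higher and 0.0288% lower, and 0 of 9 had an unadjusted edgeR p under 0.05, where 4.11% of all genes did. In supernatant 0 of 9 were called by either tool, against edgeR backgrounds of 0.0% higher and 0.0108% lower, and 1 had an unadjusted edgeR p under 0.05, where 6.2% of all genes did. The ratio of beads to supernatant differed by a call for 0 of 9 by either tool, against 0.193% higher and 0.0105% lower by edgeR, with 0 at an unadjusted edgeR p under 0.05 beside 2.12% of all genes. Over all genes, DESeq2 called 108 of 17354 higher and 16 lower on the beads. It called 14 of 18547 higher and 29 lower in supernatant, and 60 of 19122 higher and 3 lower for the ratio. Of the 77 genes in the accompanying lists, 74 or more were tested in each comparison and 0 were called by edgeR or DESeq2. At an unadjusted edgeR p under 0.05 there were 2 in bead-bound RNA (Pdyn, Slc6a3) and 3 for the ratio (Nr5a1, Tbx3, Fezf1). In supernatant there were 8, namely Chat, Ngfr, Slc5a7 and Gbx1 of the cholinergic list, and Nr5a1, Tbx3, Ddc and Otp.

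Foxa1 stood at a mean of 30.0 ± 1.93 CPM (SD, n = 3) in Ctrl beads and 29.9 ± 3.66 in Stat3KO beads, a log2 fold change of -0.01 (SE 0.149, edgeR adjusted p = 0.999) that was 0.00 with library totals in place of TMM. In supernatant it was 4.42 ± 0.282 CPM in Ctrl and 6.02 ± 1.43 in Stat3KO (log2 fold change 0.44, SE 0.195, unadjusted p = 0.0448, edgeR adjusted p = 0.797). This was the 1 unadjusted p under 0.05 among the 9 in supernatant, and Stat3KO pool 1 lay within the Ctrl range. The difference of its ratio between genotypes was -0.45 (SE 0.237, edgeR adjusted p = 1.00).

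Lhx1 was the 1 factor whose bead-bound libraries did not overlap between genotypes, with each Stat3KO pool above each Ctrl pool by as little as 10.3 against 10.2 CPM. Its log2 fold change was 0.25 (SE 0.174, edgeR adjusted p = 0.999), and 5.1% of all genes did not overlap in that direction. In supernatant 0 of 9 factors had libraries that did not overlap, beside 12.7% of all genes. Foxb1 had the largest estimate in size on the beads, at -0.43 (SE 0.265, edgeR adjusted p = 0.999), and without Ctrl bead replicate 1, its highest library, that estimate was -0.10. In supernatant the other factors ranged from -0.35 for Lhx6 (SE 0.209) to 0.29 for Foxa2 (SE 0.355).

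Lhx6 and Lhx8 differed more among the Stat3KO pools than any other of the 9 factors on the beads. Their coefficients of variation over the 3 Stat3KO pools were 50.5% and 52.1% on the beads and 35.7% and 36.8% in supernatant, against 13.8% and 9.29% and 10.1% and 19.2% in Ctrl. In Stat3KO supernatant Foxa2 varied more than both relative to its mean (0.592 ± 0.268 CPM per kb, SD, n = 3). Markers of striatum and cortex, regions outside the hypothalamus, moved with Lhx6 and Lhx8. Their summed level (9 of 9 genes detected, none at 0) was 517, 600 and 460 CPM in Ctrl supernatant and 577, 164 and 255 CPM in Stat3KO supernatant. On the beads the sums were 369, 312 and 273 CPM in Ctrl and 417, 161 and 191 CPM in Stat3KO. In Stat3KO supernatant, 8 of the 9 markers in pool 2 and 9 of the 9 in pool 3 lay below every Ctrl library, against 0 in pool 1. The part of these cells in the levels of Lhx6 and Lhx8 was not tested.

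**Figure D4:**
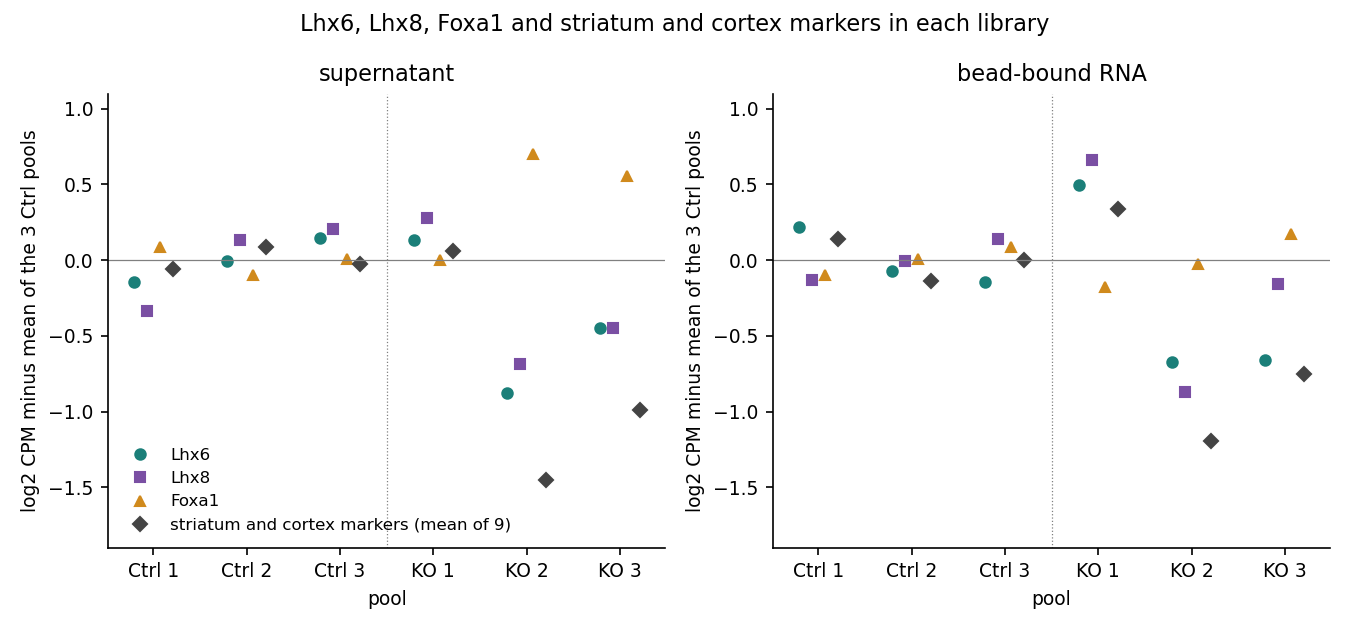
Log2 CPM in each library minus the mean of the 3 Ctrl libraries of the same fraction (vertical axis) for Lhx6, Lhx8, Foxa1 and the mean of 9 striatum and cortex markers, with the 6 pools along the horizontal axis. Lhx6, Lhx8 and the markers lie below 0 in Stat3KO pools 2 and 3 and above 0 in Stat3KO pool 1, in both fractions, and Foxa1 lies above 0 in the supernatant of Stat3KO pools 2 and 3.

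A fit with the first library of every group left out was chosen with earlier results of these data known. It drops the Stat3KO pool in which Lhx6 and Lhx8 were high and in which supernatant Foxa1 lay within the Ctrl range, and it leaves 2 libraries a group, so its calls describe those pools and support no difference between the genotypes. In supernatant Lhx6 was lower in Stat3KO by edgeR (log2 fold change -0.75, adjusted p = 0.00648), as was Lhx8 (-0.76, adjusted p = 0.00775). Foxa1 was higher (0.66, adjusted p = 0.0344). The background in that fit was 4.22% of all genes called lower and 1.07% called higher. On the beads Lhx6 was lower (-0.58, adjusted p = 0.0270), where 5.1% of all genes were called lower and 1.56% higher. For beads over supernatant in Stat3KO, 5 factors were called lower in such a fit, Foxb1 among them (-0.57, adjusted p = 0.0355), against 23.0% of all genes. The Stat3KO pools in these fits are those with low striatum and cortex markers. Cholinergic genes had a median of -0.54 in Stat3KO over Ctrl supernatant with 3 pools a group and 0 of 6 called, beside -0.00 for all genes. Markers of glial cell types had medians of like size in that comparison, -0.51 for oligodendrocytes, -0.41 for microglia and -0.36 for astrocytes. Those of neurons (0.08), endothelium (0.01) and ependyma and tanycytes (-0.16) did not. Each of these lists had 0 of 6 called. Summed over its list, each glial type was lower in every Stat3KO supernatant library than in every Ctrl one. Summed neuron markers were higher in every Stat3KO supernatant library (6185 to 6358 CPM) than in every Ctrl one (5527 to 6177 CPM). Endothelial sums overlapped, as did those of ependyma and tanycytes. Taken singly, 12.7% of all genes did not overlap in that comparison, in either direction. The part of these cell types in the supernatant values of the 9 factors was not tested.

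**Figure D5:**
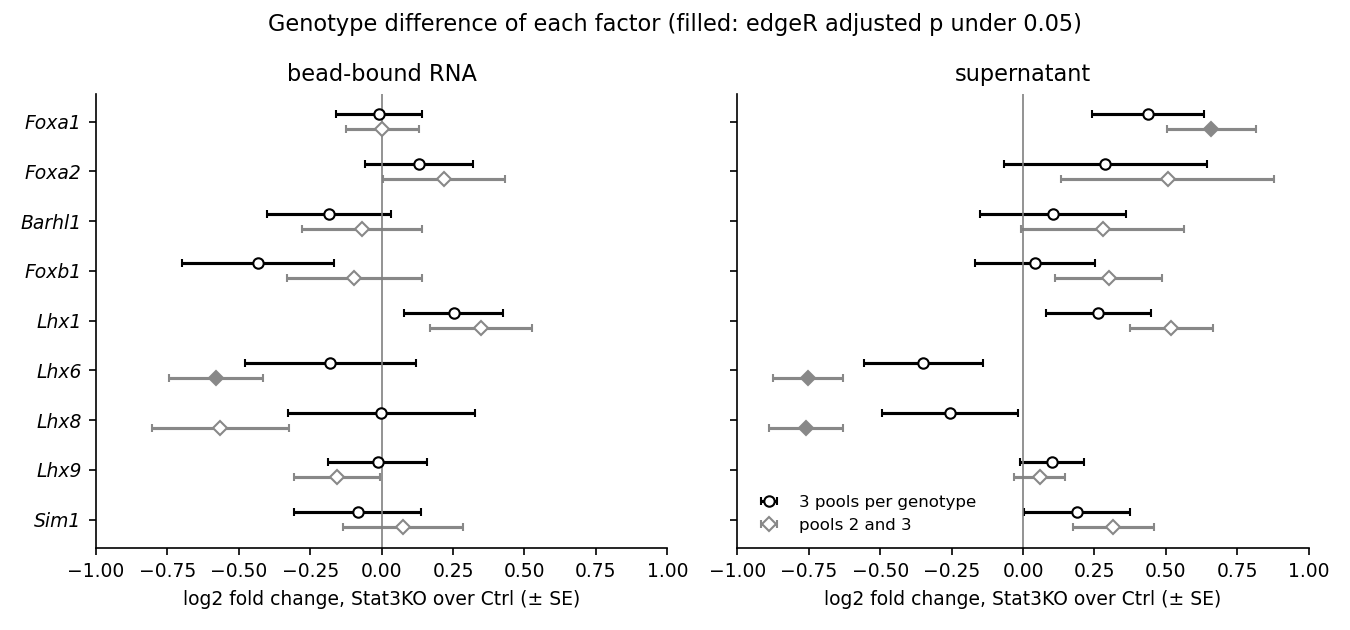
Log2 fold change of Stat3KO over Ctrl with its SE (horizontal axes) for each factor, in bead-bound RNA and in supernatant, with 3 pools per genotype (circles) or with pools 2 and 3 (diamonds); filled symbols have an edgeR adjusted p under 0.05. No circle is filled, and the filled diamonds are Lhx6 on the beads and Foxa1, Lhx6 and Lhx8 in supernatant.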

How the data were processed

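Bead-bound and supernatant RNA of 6 mouse pools was sequenced in 12 libraries by polyA selection and single-end reads of 50 cycles, per the labels' protocols. The authors deposited raw whole-number counts per gene. STAR 2.5.3a and the mm10 build are named in the submitters' processing notes, while the counter and its annotation release are not given in the sources. Gene names and coordinates came from GENCODE M21 on GRCm38, which matched 52489 entries and left 149 unmatched, and 0 columns were left over.

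The test was edgeR 4.0.16 under R 4.3.3 (TMM, filterByExpr at min.count 10 and min.total.count 15, quasi-likelihood fit, two-sided, Benjamini-Hochberg adjusted p under 0.05 over all genes tested). Comparisons of a pair of groups used their 6 libraries, and the difference and the mean of ratios used all 12. The SE is the log2 fold change divided by the square root of F. Log2 CPM used a prior count of 2. Fits with DESeq2 1.42.0, library totals, no filter, a replicate block, all 12 libraries and libraries left out were also made. The code was tested on simulated data.

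The members and lists were chosen with earlier results of these data known. Named list genes are up to 3 per list with the smallest p for the mean ratio, plus 3 nearest profiles per member. Dlx1, Gbx1, Wnt8b and Arnt2 were named after their values were seen. Same-numbered bead-bound and supernatant libraries came from 1 pool: over 10207 genes their deviations from group means had r of 0.525 to 0.728. P-values between genotypes within 1 fraction measure the spread between pools of mice. Those of the main fits of beads over supernatant and of the ratio difference leave out the pairing by pool. They treat the libraries of 1 pool as independent. Reads carry no molecular identifiers. Promoter windows are from RefSeq. A gene that the naming rule picks is not reported here.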

Additional observations from a re-analysis of the deposited data

How the results depend on the processing

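The counts of factors called higher on the beads (3 in Ctrl, in Stat3KO and in the mean) were the same in every alternative run. The number called lower in Stat3KO was 2, and it was 4 with no filter, 4 with the replicate block, 5 with the first library of every group left out and 2 to 4 with single libraries left out; for the mean it was 3 to 4 in those fits. With the first libraries left out, 1 factor was called higher and 2 lower between genotypes in supernatant, and 1 lower on the beads; Foxb1 was then lower on the beads in Stat3KO (-0.57, edgeR adjusted p = 0.0355) and in the mean (-0.37, adjusted p = 0.0422). Lhx8 in Ctrl was -0.80 with adjusted p = 0.0609 when all 12 libraries were fitted. Lhx6 in Stat3KO was called at -0.92 by DESeq2 (adjusted p = 0.0206), -1.07 with library totals (0.0427), -0.94 with all 12 libraries (0.0230) and -0.93 with no filter (1.74e-06), where Lhx8 was at -0.55 (0.0435). The cause was not tested. Library totals moved the median of all genes from -0.01 to -0.16 in Ctrl beads over supernatant and the calls from 3735 higher and 3829 lower to 2387 and 4906; in Stat3KO the calls went from 2669 and 3135 to 1842 and 3716, and in the mean from 5012 and 5488 to 3630 and 6722.

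Some values changed sign, among them only differences with no call. Between genotypes on the beads Lhx8 was 0.0087 by DESeq2, Foxa1 0.00022 with library totals and 0.0019 without the first libraries, and Sim1 0.074 without them. For beads over supernatant Foxb1 in Ctrl was -0.077 with library totals and -0.19 without the first libraries. Lhx1 was -0.072 in Ctrl, -0.053 in Stat3KO and -0.062 in the mean with library totals, -0.058 in Stat3KO without the first libraries, and its ratio difference was 0.020 with library totals. Leaving out single libraries gave ranges across 0 on the beads between genotypes for Barhl1 (-0.34 to 0.010), Foxa1 (-0.10 to 0.077), Lhx6 (-0.67 to 0.019), Lhx8 (-0.47 to 0.29), Lhx9 (-0.11 to 0.12) and Sim1 (-0.27 to 0.091). In supernatant they were Barhl1 (-0.13 to 0.27), Foxa2 (-0.16 to 0.56), Foxb1 (-0.23 to 0.21) and Sim1 (-0.019 to 0.37). For beads over supernatant they were Foxb1 in Ctrl (-0.26 to 0.28) and Lhx1 in Ctrl (-0.058 to 0.17), in Stat3KO (-0.11 to 0.22) and in the mean (-0.014 to 0.15). For the ratio difference they were Foxa2 (-0.44 to 0.29), Lhx1 (-0.18 to 0.14), Lhx6 (-0.33 to 0.48), Lhx8 (-0.23 to 0.59) and Lhx9 (-0.23 to 0.044).

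The pool as a block changed no other call among the 9. Between genotypes the replicate numbers do not pair the pools, and with the number as a block Foxa1 in supernatant was 0.42 (adjusted p = 0.654) and 0 of 9 were called. Few reads limit Foxa2 in supernatant most.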
